A study of Drosophila melanogaster with 4 samples.

Results

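The transcripts described here begin at a first exon beyond the point where a longer coding sequence of the same locus has already begun. The protein they encode is shorter than that longer form. They were chosen from a catalogue of long-read transcripts of Drosophila melanogaster testes by their structure alone. A locus of the catalogue can reach beyond a single annotated gene, and not all of these transcripts start inside the annotated gene. A member was spliced and carried a coding sequence (CDS). It started 3′ of the first CDS base of another transcript of its locus that had the same last CDS base and a longer CDS, and its first exon overlapped no exon of that longer transcript. The rule found 1950 members among 40180 transcripts, or 4.85% (95% exact binomial interval 4.65% to 5.07%), of which 32504 were spliced and carried a CDS. They came from 687 of 9100 loci and carried 700 gene names, and 17 members stayed without a name. Where several longer transcripts met the rule, the longest CDS was used for comparison.

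The libraries were made from testes of males aged 0 to 2 days, with 150 pairs of testes per sample. All flies carried the driver bamGAL4, which is active in late spermatogonia. The 2 control samples carried the driver alone, and the 2 knockdown samples also carried KmgRNAi, an RNA interference construct against kmg. Crosses were kept at 25 °C for 3 days and the progeny were moved to 29 °C. Full-length complementary DNA was sequenced by the Iso-Seq method. The authors deposited 1 annotation in which all 4 samples are merged, and it holds no sample, condition or read number. Control and knockdown could therefore not be compared, depth is unknown, no replicate spread can be given, and intervals below cover counting error over transcripts only.

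Many genes have several promoters, and a promoter inside a gene can give a protein that lacks the first residues or replaces them with others. Such N-terminal variants can lose a domain, a localisation signal or a regulatory region while keeping the rest of the protein. Kmg is a zinc-finger protein of spermatocytes that is known to act with the chromatin remodeller Mi-2 to keep promoters of other cell types silent. Marker genes were looked up in the catalogue. Of 10 germline markers 9 were listed: bol with 19 transcripts, twe with 8, the others with 5 or fewer, and vas with 0. All 3 of 3 somatic testis markers were listed, with at most 5 transcripts. Of 6 genes of other tissues, 5 were listed, with at most 7 transcripts (Mhc, muscle myosin), and Acp70A had 0. These listings alone do not set testis apart from other tissues. Whether RNA of other tissues contributed members was not tested.

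The loss ranged from 1 to 2982 amino acids (aa), with a median of 141 (interval 134 to 152) and quartiles of 53 and 327. It was at least 50 aa in 1486 members (76.2%), at least 500 in 298 (15.3%) and at least 1000 in 61 (3.13%). Relative to the longer CDS the median loss was 22.3% (interval 21.0% to 23.8%), and 354 members (18.2%) lost at least 50%. The median member encoded 490.5 aa and the median longer transcript 717 aa. Members encoding fewer than 100 aa were rare, at 5. The loss is the net difference in protein length; counting also what members replaced with residues of their own, a median of 162 aa of the longer protein was absent. These sizes follow from the rule and describe the members.

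**Figure D1:**
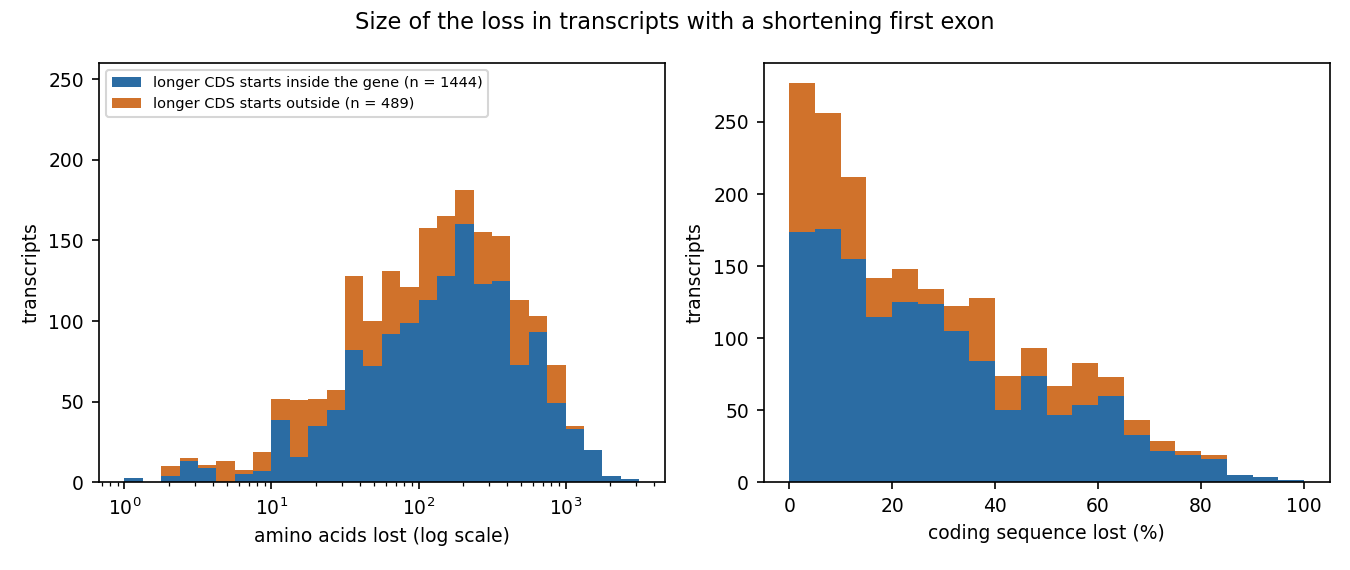
Histograms of amino acids lost (left, log axis) and of the share of the coding sequence lost in percent (right), counting transcripts. Blue marks the 1444 members whose longer CDS starts inside the annotated gene and orange the 489 whose longer CDS starts outside it, with medians of 158 and 93 aa, and the 17 members without a name are not drawn.

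The starts of member and longer transcript lay a median of 6466 bp apart (interval 5756 to 6909), with quartiles of 2655.5 and 16478.5 bp and a range from 149 to 197217 bp. In 735 members (37.7%) the distance was at least 10 kb, in 127 (6.51%) at least 50 kb, and in 159 (8.15%) under 1 kb. The member's start lay a median of 4616.5 bp beyond the first CDS base of the longer transcript. Closest to the limit of the rule were cpb, which began 20 bp past that base and lost 3 aa, Rheb at 51 bp with 74 aa, and Sar1 at 58 bp with 38 aa. Just outside it, CG14506 began 65 bp and CG15760 68 bp before that base, with differences of 45 and 41 aa.

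**Figure D2:**
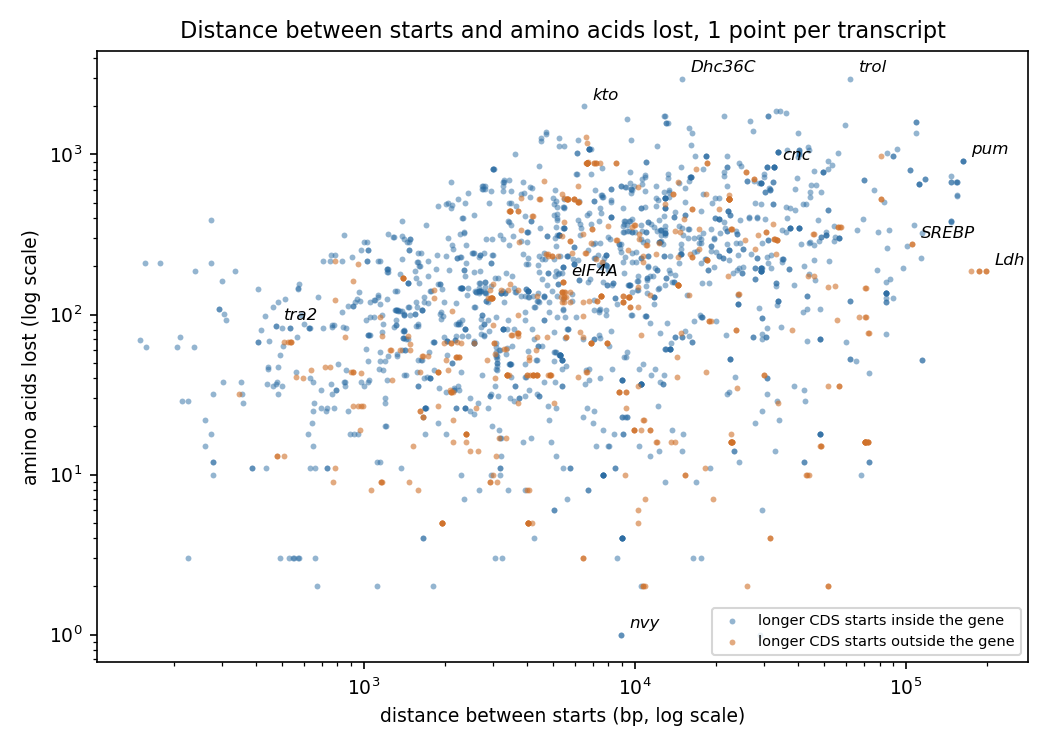
Each point is a member, with the distance between the starts in bp on the x axis and amino acids lost on the y axis, both on log scales. Blue and orange mark a longer CDS that starts inside or outside the annotated gene. Large losses occur also at distances near the median (kto, 1999 aa over 6494 bp) and small ones at long distances (luna, 52 aa over 114900 bp).

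The members' first exons were short, with a median of 191 bp (interval 185 to 200), and the intron of the longer transcript that held them was 4071 bp at the median. They need not be absent from every other longer transcript. No overlap with any exon of a transcript with a longer CDS and a farther start was found for 1547 members at 628 loci. The exon lay in the first intron of the longer transcript in 673 members (34.5%), in the next intron in 469 (24.1%), and in intron 5 or later in 398 (20.4%). In 1537 members (78.8%) it was spliced to the next acceptor that the longer transcript also uses. The first splice donor was shared with another transcript of the catalogue in 1227 members (62.9%), and all members together used 1205 donors.

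The proteins changed mostly at the N terminus. In 1703 members (87.3%) the rest of the coding sequence was identical in structure. In 924 (47.4%) the protein was a plain N-terminal truncation: the reading frame opened in an exon or part of an exon that the longer transcript also codes. In 930 members (47.7%) some coding bases were their own, at the N terminus or elsewhere. Bases that the longer transcript codes in another frame count as own. Counted as bases divided by 3, they came to a median of 21.3 aa and to as little as 0.67 aa. In 692 members (35.5%) the CDS opened in the member's first exon itself. The most own sequence, 530.3 aa, was in l(1)G0196, whose member encoded 667 aa against 1334.

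First exons that keep the CDS of some transcript with a farther start were found in 2469 transcripts of 854 loci. That CDS need not be the longest of the locus. The 2 groups overlap, as 327 of the 1950 members (16.8%) also kept the CDS of another transcript with a farther start. The exons that keep a CDS lay closer to the farther start, with a median distance of 2669 bp (interval 2451 to 2912) against 6466 bp. They had a median of 170 bp against 191 bp. The rule ties the shortening exons to a position beyond the CDS start, so the longer distance is a description. Both kinds occurred together at 252 loci, which is 36.7% of the loci with a shortening exon and 29.5% of those with an exon that keeps the CDS.

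Members were spread over the large autosomal arms in like proportion, from 6.15% of the spliced coding transcripts on 3R to 7.02% on 2R. On X they were 100 of 3552, or 2.82% (interval 2.30% to 3.41%). By locus the share on X was 4.73%, and on the autosomal arms it ran from 10.2% to 11.9%. The difference between X and autosomes was not tested.

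Position relative to the RefSeq gene divided the named members. In 1444 members of 568 genes the longer CDS began inside the annotated gene span, and the member is a shortened form of a protein of that span. In the other 489 members of 137 genes the longer CDS began more than 200 bp upstream of the span. There the longer protein joins upstream sequence to the gene. Of the 489 members, 258 started within 100 bp of the gene's annotated outer end, 65 farther upstream and 166 farther inside. The longer CDS was listed in a single transcript for 86.7% of these members and for 50.3% of those in the first class. In 290 of the 489 (59.3%) it began inside the span of another protein-coding gene of the same or unknown strand. Only the position of the first CDS base was compared with these spans, and exons and reading frame of the other gene were not.

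The locus of cnc, the fly member of the Nrf2 family of stress-response factors, lies on the minus strand of 3R. Its longer transcript started at position 23221992 (genome Release 6) and encoded 1374 aa, a CDS listed in 5 transcripts. The 18 members encoded 1048, 954, 937, 805, 711 or 533 aa. The start for 1048 aa lay 10009 bp from the longer start, with 8 own residues, and that for 937 aa lay 14139 bp away. The starts for 711 aa lay 28660 to 29360 bp away and those for 533 aa 30838 to 32783 bp away, none of these with residues of their own. The shorter the protein, the later the exon at which it began, apart from the 954 aa form, which started 22457 bp away and so 3′ of the 937 and 805 aa forms. Other transcription factors with 2 or 3 members each included chinmo, a BTB zinc-finger factor of stem cells (570 and 592 against 604 aa), zfh1, a cyst stem cell factor (733, 747 and 774 against 1054 aa), and so, the Six-family factor sine oculis (121 and 138 against 416 aa). In so the full CDS was listed in 11 transcripts, and RefSeq lists a single transcript for the gene. Eip75B, an ecdysone-induced nuclear receptor, encoded 906 against 1099 aa in 2 members that started 37056 to 37178 bp from the longer start.

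RNA-binding proteins were the list with the most genes affected, 16 of the 32 in the catalogue, beside 700 of 8008 named genes (8.74%). The list was drawn up with earlier results of these data known, so nothing particular to it is read from these counts. orb2, a CPEB-family regulator of translation with a known role in spermatid differentiation, had 5 members that encoded 551 aa against 704, a CDS listed in 8 transcripts. They used a first exon 9479 to 9573 bp from the longer start and replaced the lost residues with 8.67 aa equivalents of their own. Its relative orb, on the minus strand of 3R with the longer start at 23280880, had 10 members encoding 453 to 913 aa against 915. Of these, 5 encoded 453 aa and began either 10533 to 10579 bp or 12946 bp from the longer start. The 453 aa members of the first range shared a first donor with the 554, 617 and 913 aa members, and these transcripts differ in later exons. The 913 aa form replaced nearly all it lost with 77.3 own residues. tra2, the splicing regulator of sex determination that is known to make germline forms from separate starts, had its internal start 474 to 478 bp from the longer one. There the members encoded 179 aa (2 members) and 226 aa (1 member) against 264. The 226 aa member and the 179 aa member drawn below shared a first donor. Their second exons began 839 and 725 bp from the longer start.

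pum, the translational repressor Pumilio, had 3 members that encoded 619 aa against 1533 from starts 162550 to 163079 bp away. bru1 (Bruno, a translational repressor) held the highest relative loss. From starts 103535 to 103574 bp away, 2 members encoded 24 aa against 822, losing 97.0% of the CDS. The 5 others encoded 384 to 581 aa against 613. Relative to the 613 aa form, the 531 and 581 aa forms had 233.7 own residues each. These 5 began at 12205817 to 12205830, and the 822 aa form began at 12205812 with the same stop. Its CDS opened at 12241080, as in the 531 and 581 aa members. This start region therefore also gave a form longer than 613 aa. sm, the hnRNP L homologue Smooth, had 10 members that encoded 381 to 464 aa against 540, each with at least 107.3 own residues from starts 84363 to 84448 bp from the longer one. Rm62, a DEAD-box helicase, encoded 578 aa against 719 in 7 members, and 9 further transcripts that are no members carried the same short CDS. For Rbp9 the short form was 439 aa against 643, for eIF4G2, a testis translation factor, 1405 and 1487 against 2026, and for AGO1 855 to 950 against 984.

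**Figure D3:**
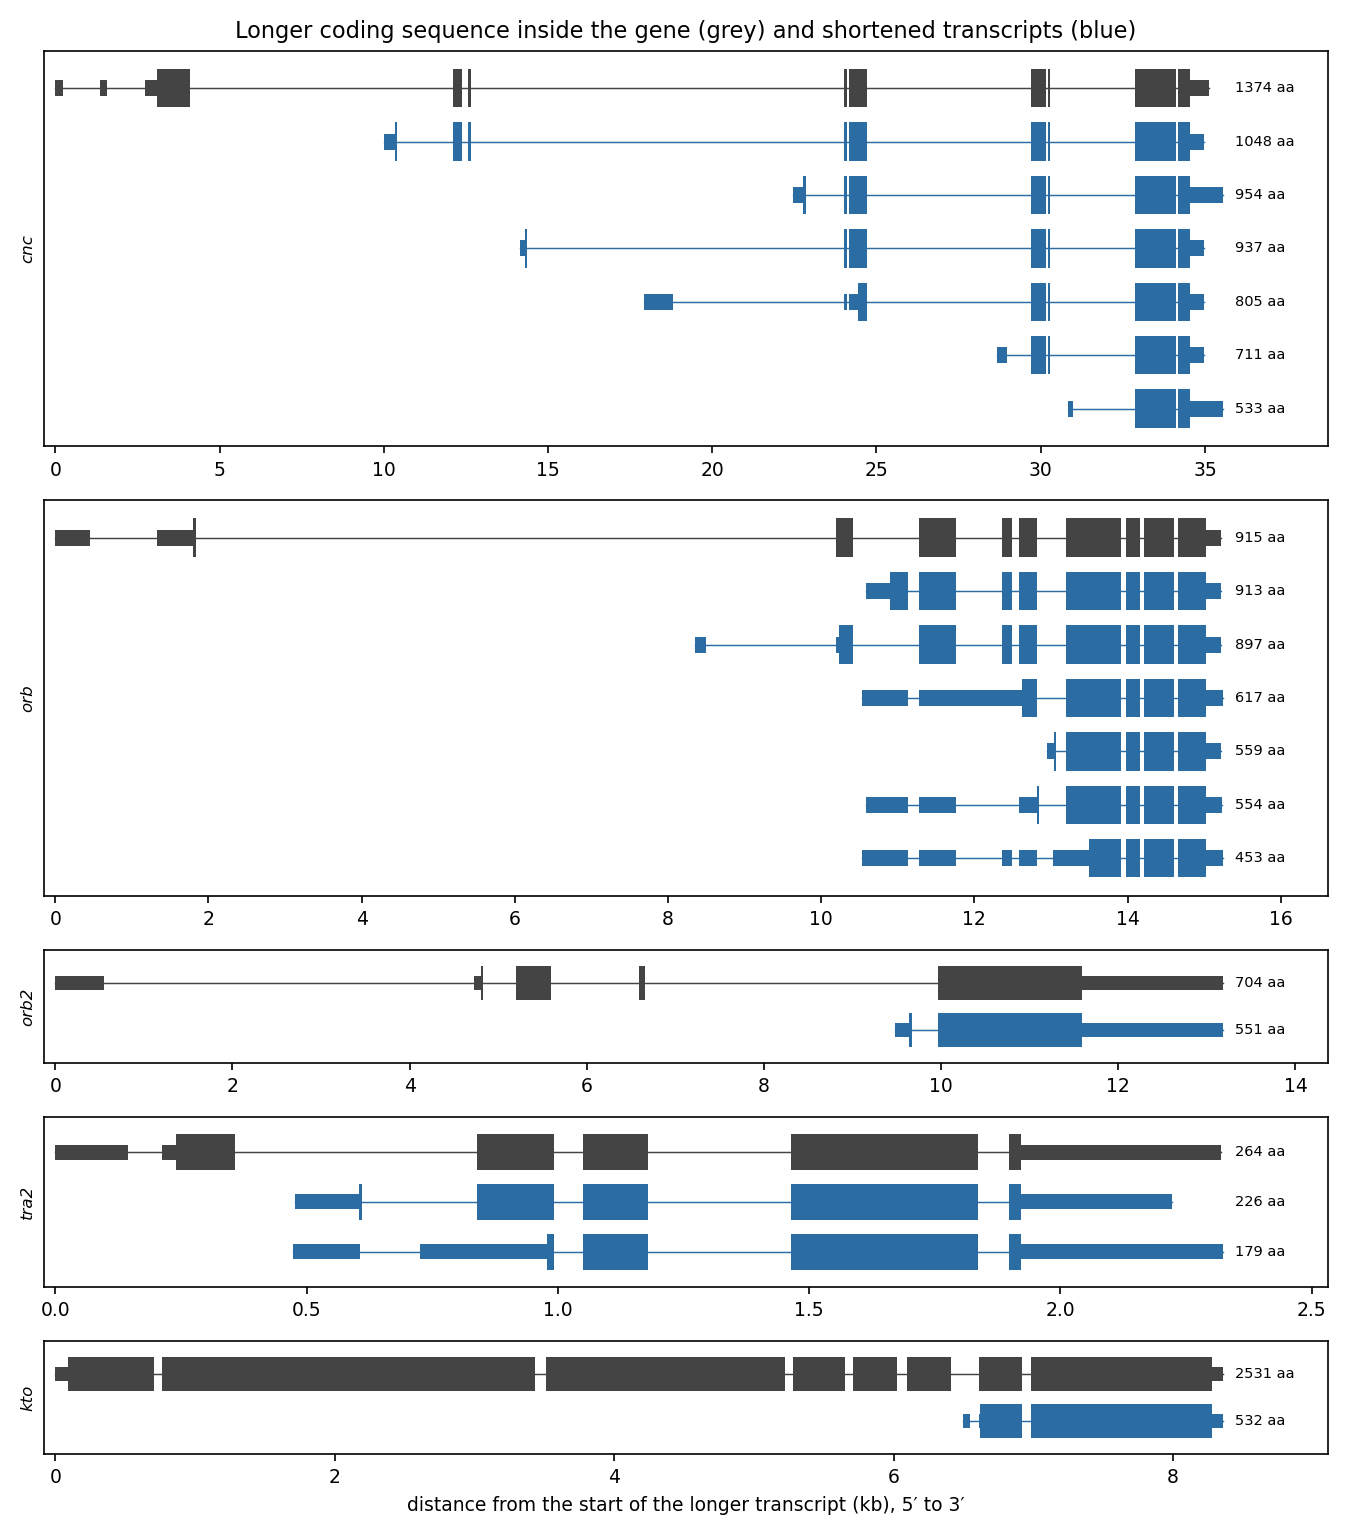
Transcript maps of cnc, orb, orb2, tra2 and kto, with distance from the start of the longer transcript in kb on the x axis. Tall boxes are coding and low boxes non-coding parts of exons, lines are introns, grey is the longer transcript and blue 1 member per protein length, given at the right in aa. The internal exons of cnc lead to 6 protein lengths, from 1048 to 533 aa.

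The 10 genes with the largest losses encode proteins of several kinds. trol, the basement membrane proteoglycan Perlecan, had a member on X that encoded 746 aa against 3728, a loss of 2982 aa from a start 62465 bp from the longer one. Dhc36C, an axonemal-type dynein heavy chain, lost 2976 aa: its member encoded 1048 aa against 4024, starting 14973 bp from the longer start in intron 17 of the longer transcript, whose CDS was in 3 transcripts. Dhc98D, another dynein heavy chain, encoded 3398 aa against 5073. kto, the Mediator subunit Med12, encoded 532 aa against 2531 from a first exon in a 204 bp intron. trio, a guanine nucleotide exchange factor, encoded 385, 531 or 793 aa against 2263, so all 4 members lost at least 64.9% of the CDS. Mhcl, a myosin heavy chain relative, encoded 533 or 1557 aa against 2160. The gene fry, whose product Furry is a scaffold of the Tricornered kinase, encoded 1483 to 1863 aa against 3218. Pi3K68D, a class II phosphoinositide kinase, encoded 145 aa against 1876 in 2 members. mld, a zinc-finger protein, encoded 102 aa against 1918, with 19.3 own residues. bbg, a PDZ-domain protein, encoded 1033 or 1101 aa against 2637.

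Of the centrosome and cytoskeleton genes on the list, 7 of 32 in the catalogue had a member, beside 8.74% of all named genes, and nothing is read from this count. Most members came from cnn and CLIP-190. cnn (Centrosomin, a core protein of the pericentriolar material) had 20 members that ended at 4 stops, with longer forms of 1277, 558, 520 and 267 aa. Against the 1277 aa form the members encoded 767 to 1264 aa, and their starts fell in 2 groups, 2655 to 2689 bp and 5111 to 5126 bp away. Only the 767 and 1219 aa members differed from it at the N terminus alone. Members of 1090, 1219, 1251 and 1264 aa shared a first donor and a CDS start, so their lengths differ through later exons. Own residues numbered 18.3 in the 1219 aa member and 63.3 in the 1264 aa member. CLIP-190, a microtubule plus-end protein, had 17 members at 3 stops. Against its 1689 aa form 6 members encoded 1194 to 1610 aa, and the longest, from a start 1403 bp away, was 79 aa shorter with 9.33 own residues. tacc, a centrosomal partner of the microtubule polymerase Msps, had 6 members that each encoded 245 aa against 1322, losing 81.4%. tau encoded 127 aa against 350, and zip, the heavy chain of non-muscle myosin II, encoded 1780 aa against 2011.

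Of the kinase and phosphatase genes on the list, 11 of 48 in the catalogue had a member, beside the same 8.74%; this list too was drawn up with earlier results known. Pdk1, the kinase that activates Akt, had 15 members that mostly encoded 755 aa against 836, with 1 member each of 539 and 696 aa and 2 of 819 aa. A further member encoded 628 aa against a 709 aa form. tws, the regulatory B subunit of PP2A, had 8 members that all encoded 443 aa against 499, a CDS in 6 transcripts, with starts within 5269 to 5304 bp of the longer one. for, the cGMP-dependent protein kinase of the foraging locus, had 5 members that encoded 894 aa against 1088 and exchanged their N terminus for 367.3 own residues. sgg, the GSK3 kinase, encoded 496 aa against 514 in 2 members, 416 against 514 in 1, and 477 against 575 in 2. aPKC encoded 503 aa against 801, csw, a tyrosine phosphatase, lost 159 aa in each of 2 members, and Tak1 encoded 258 aa against 678.

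The longest distances between starts were found in Ldh, described below, and pum. They were followed by SKIP, with 11 members up to 154523 bp from the longer start and proteins of 326 to 685 aa against 1064, and Fur1 (a furin protease), with members of 395, 778 and 877 against 1101 aa from 114089 to 117806 bp. luna, a zinc-finger factor, lost only 52 of 570 aa over 114900 bp. mtgo, an orthologue of FNDC3 proteins, encoded 1413 aa against 2064 from starts 112103 to 112359 bp away. LpR1, a lipophorin receptor, encoded 131 aa against 496, and the most distant member of sick encoded 1346 aa against 2707, and 446.0 of its residues were its own. At the other extreme, nvy lost 1 of 743 aa in 2 members without any own residue. The 528 aa form of nuf, a Rab11 adaptor, was 1 aa shorter than its 529 aa counterpart, and 239 of its residues were its own relative to that form. A 541 aa form of nuf had the same start, the same first CDS base and the same stop as the 528 aa form.

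None of 12 catalogued meiotic arrest genes had a member, and of 23 spermatid differentiation genes 3 did: orb2, bol (168 against 242 aa) and Pif1A (879 against 1264 aa). Among 11 Kmg and remodeller genes, mor (1064 against 1209 aa) and MTA1-like (530 against 808 aa) had a member each. The 808 aa CDS was listed in 1 transcript and began upstream of the annotated MTA1-like span. Of cyst and other somatic cell genes 4 of 14 had a member, and of germline stem cell and spermatogonia genes 2 of 8. Of neuronal genes 1 of 10 had a member (Gad1, glutamate decarboxylase, 394 against 510 aa). Over all named genes the share was 8.74%, and no difference from it was tested. Of genes known to have promoter-dependent N termini, 10 of 19 did, a list that was chosen for this property.

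In the class whose longer CDS starts outside the gene, the longer protein carried residues from sequence upstream of the annotated span. eIF4A, the DEAD-box helicase of translation initiation, had 17 members of 403 aa and 3 of 285 aa, beside a longer form of 445 aa that began 3371 bp or more upstream. SREBP, the regulator of lipid synthesis, encoded 1113 aa in both members; the longer transcript began 105727 to 105734 bp away in the span of Gbeta76C and encoded 1387 aa. Ldh, lactate dehydrogenase, encoded 332 aa in 5 members, against 518 aa in a transcript that began 174170 to 197217 bp farther 5′ and whose CDS opened in the span of CG13300. SAK, the centriole kinase Plk4, encoded 769 aa against 1109 aa from a CDS that began in the span of Mkrn1. alphaTub85E, an alpha-tubulin, encoded 449 aa or 247 aa against 785 aa from a CDS that opened in the span of side-VII. Both members had the same first exon, and the 247 aa member kept an intron that the 449 aa member spliced out. Argk1 (arginine kinase) encoded 356 to 562 aa in 14 members against 926 aa from a CDS that opened in the span of CG4911. Pka-R1, a regulatory subunit of protein kinase A, encoded 376 or 377 aa in 11 members. Its longer form had 903 aa, with a CDS that opened in the span of HIPP1. In these loci the longer CDS was listed in 1 transcript each, except eIF4A with 2.

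Among the loci with most members, CG7886 gave 17 members of 806 or 810 aa and 1 each of 525 and 412 aa against 1699 aa. The 1699 aa CDS was listed in 1 transcript and began in the span of l(3)L1231. CG18659 had 18 members compared with an 877 aa CDS that began in the span of alc, and 2 with a 908 aa form inside the gene. CG17528 encoded 746 or 748 aa in 10 of its 13 members, against 764 aa from a CDS that began upstream of the gene in 1 transcript. In these 10 the protein was 16 or 18 residues shorter and carried 22.3 or 20.3 of its own. The remaining members encoded 421 aa, a loss of 343 aa (44.8%). For CG43675 the longer CDS, opening in the span of drn, was listed in 13 transcripts for 14 of its 16 members. Veneno, a Tudor-domain protein, encoded 188, 600 or 642 aa against up to 1169 aa from a CDS that opened in the span of CG45263. Lac, a cell adhesion protein, encoded 196 or 359 aa against 590 aa from a CDS that opened in the span of Dyb.

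**Figure D4:**
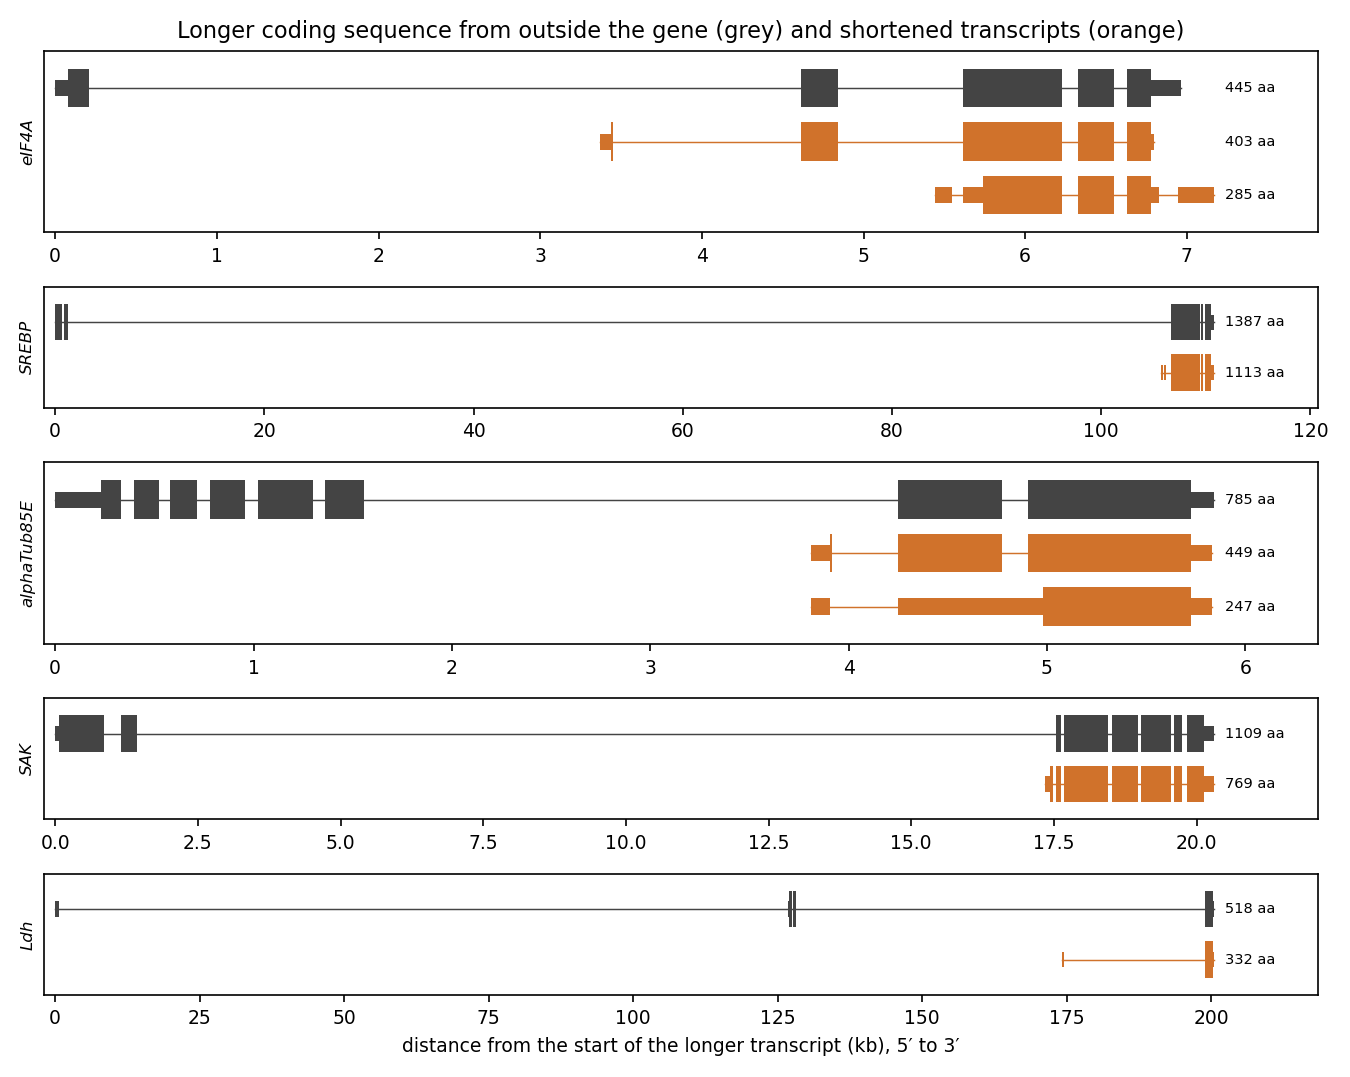
Transcript maps of eIF4A, SREBP, alphaTub85E, SAK and Ldh drawn as in the plot of cnc, with the longer transcript in grey and 1 member per protein length in orange. The CDS of each grey transcript begins outside the annotated gene, and the drawn members start 105727 bp from the grey transcript in SREBP and 174170 bp in Ldh.

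**Figure D5:**
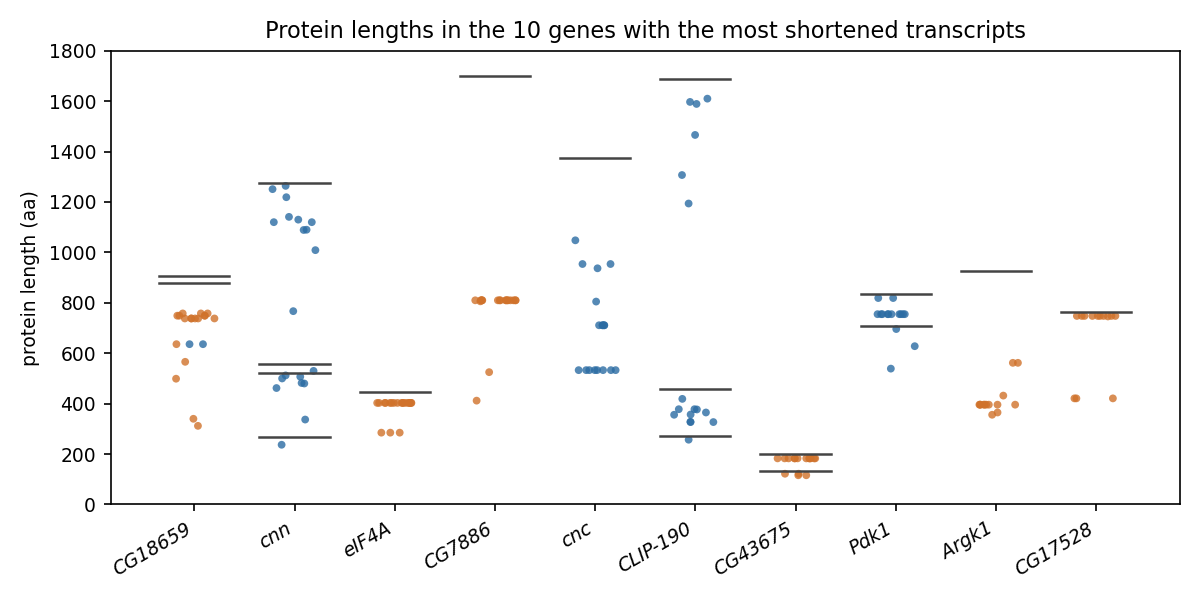
Protein length in aa (y axis) of every member in the 10 genes with the most members (x axis), with a horizontal line for each longer form. Blue and orange mark a longer CDS that starts inside or outside the gene. Points at 403 and 285 aa lie under the 445 aa line of eIF4A.

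RefSeq lists only 1 transcript for 49 of the genes whose longer CDS began inside the span, and these genes held 77 members. Ino80, the ATPase of a chromatin remodeller, encoded 377 and 426 aa against 1638. CG33158 encoded 122 aa against 1033, a loss of 88.1%, from a start 51540 bp away. side-III, a Sidestep-family protein, encoded 361 aa in 3 members against 1342. CG42327 encoded 261 aa against 1412, and CG34109 encoded 166 and 275 aa against 781.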

How the data were processed

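The authors deposited 1 annotation (GTF) that merges the 4 samples. Its lines place transcripts, exons and coding parts on the genome and give a reading phase (unit: other). The deposited file's own name records a TAMA merge, correction, filters including tappAS, and added CDS. Builds BDGP6 and dm6, both Release 6, come from the submitters' processing notes, whereas aligner and settings were not given in the sources used here. Depth per sample is unknown, and with replicates merged no test was made.

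Members were found with Python 3.11.15 (pandas 2.3.3, numpy 2.4.6, scipy 1.17.1, matplotlib 3.10.9 for figures). The search was tested on simulated data of 500 loci, where it found 125 of 125 built members and 0 others. CDS lengths include the stop codon, which protein lengths leave out. A member took the name of the RefSeq protein-coding gene whose span (17693 genes of all kinds lie on the arms) holds its stop and at least 50% of the shortest CDS, with the nearest 3′ end. This rule replaced a planned one on span overlap after the file was seen, since nested genes were misnamed. Both rules gave the same name to 1762 of 1793 members named by overlap, and 55 members had over 1 candidate gene. The table gives no strand, which was inferred from transcript ends and could not be inferred for the genes of 128 members. Named genes were the 10 each with the most members, the largest losses and the longest distances, the 5 each with the highest percent and the fewest residues lost, up to 10 with a single RefSeq transcript, and listed genes with a member. Members, lists and rule were chosen with earlier results of these data known. Protein sequences were not used here, so a planned check of start methionines was not run.

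Intervals are exact binomial (Clopper-Pearson) for shares and order-statistic for medians, at 95%. Results were recomputed under 14 other settings and 4 more that were added after the data were seen.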

Additional observations from a re-analysis of the deposited data

How the results depend on the processing

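No paired analysis was possible because the 4 samples are merged in 1 annotation, and no replicate could be left out. Over 18 alternatives the median loss ran from 91 to 216 aa and stayed within its interval in 9, and the median distance ran from 4430 to 7285 bp (11 within). The choice of longer transcript mattered: with the smallest loss the medians were 91 aa, 14.9% and 5423.5 bp, and with the nearest start 107 aa, 17.8% and 4430 bp. First donors in at least 2 transcripts left 1227 members at 349 loci (130 aa, 20.1%, 39.2% with the CDS start in the first exon). With 1 transcript per donor there were 1205 members (156 aa, 24.3%, 7100 bp, 31.9%), and with 1 per locus 687 (173 aa, 28.0%, 28.8%). A shared acceptor gave 40.2% with the start in the first exon, and last exons ending within 50 bp gave 32.9%. Losses of at least 50 aa gave 216 aa, 31.2%, 7285 bp and 31.1%. A longer transcript at the outer RefSeq end left 1110 members at 424 loci (5562 bp), and single-transcript genes 173 at 95 loci (156 aa, 28.7%, 4944 bp). Of the alternatives added after the data were seen, a CDS start inside the gene gave 157 aa and 32.6%, the most listed CDS 127 aa and 20.3%, and a longer CDS in at least 2 transcripts 1042 members at 389 loci (7085 bp). Most of these settings compare fewer transcripts or another longer form by construction, and the cause was not tested further. Keeping to coding sequences in the same frame at the stop changed no value. The shared last CDS base already sets that frame, so this setting says nothing about the frame farther 5′.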
